A study of Mus musculus with 6 samples.

Results

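The 9 genes described here are mouse genes induced by interferon that encode guanylate-binding proteins (Gbp2, Gbp3, Gbp5 and Gbp7), immunity-related GTPases (Iigp1, Irgm1, Irgm2 and Igtp) and a protein of the Ifi200 family (Ifi204). They were taken from the count table by their symbols, 9 of its 22030 genes, and all 9 passed the filter on low counts that left 13067 genes for testing. The study sequenced messenger RNA of mBMSCs, mesenchymal stem cells of mouse bone marrow with bone, fat and cartilage among their fates. It asked how RIOK3, a kinase of the atypical RIO family, bears on their osteogenic differentiation. The 3 libraries titled siNC are labelled wild type (WT), and the 3 titled siRIOK3 are labelled as a RIOK3 knockdown. The design text speaks of stable lines made with a lentivirus and also of a knockout, the titles begin with si, and the labels do not say which agent was used, whether a line was a clone, or which mouse strain, age, medium or day of culture the cells had. Nothing says that the replicates were separate cultures, so the p-values measure only the spread among these libraries, and part of that may be technical.

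Guanylate-binding proteins (GBPs) are large GTPases that assemble on bacteria and on the vacuoles of intracellular parasites, where they open the vacuole and expose microbial products to inflammasome sensors. The immunity-related GTPases (IRGs) attack the same vacuoles: Iigp1 is an effector that coats the vacuole membrane, while Irgm1, Irgm2 and Igtp (also called Irgm3) are regulators that sit on the cell's own membranes and keep effector IRGs inactive there. Ifi200 proteins, Ifi204 among them, bind DNA and act in innate sensing and in growth control. Interferons switch these genes on through STAT and IRF factors, which bind the interferon-stimulated response element (ISRE) and the gamma-activated site (GAS) in their promoters.

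The RefSeq promoters (GRCm38.p6) of 7 of the 9 genes were matched by symbol, and the 250 bases upstream of the start were searched on both strands. The ISRE was written as GAAA, any 2 bases and GAAA, or its reverse complement TTTC, any 2 bases and TTTC, and the GAS as the palindrome TTC, any 3 bases and GAA. All 7 genes searched held an ISRE match in a window, against 978 (2.98%) of 32851 mouse promoters of the same length. The 7 genes had 8 windows, and another window of Gbp3 held neither an ISRE nor a GAS match. The background counts promoters and not genes. A GAS match was found for 4 genes, Gbp5, Gbp7, Igtp and Irgm2, against 2306 (7.02%) of all promoters. The windows of 5 genes are printed, 5′ to 3′ on the gene's strand, because they pair the GBP genes with the largest and the smallest fall described below (Gbp7 and Gbp2) with the 3 regulator genes that were not called lower with all 6 libraries. Capitals mark the ISRE and GAS matches. The windows are Gbp7, chr3:142530086-142530335 (+), Gbp2, chr3:142620413-142620662 (+), Irgm1, chr11:48871421-48871670 (−), Igtp, chr11:58199306-58199555 (+), and Irgm2, chr11:58214727-58214976 (+).
Gbp7: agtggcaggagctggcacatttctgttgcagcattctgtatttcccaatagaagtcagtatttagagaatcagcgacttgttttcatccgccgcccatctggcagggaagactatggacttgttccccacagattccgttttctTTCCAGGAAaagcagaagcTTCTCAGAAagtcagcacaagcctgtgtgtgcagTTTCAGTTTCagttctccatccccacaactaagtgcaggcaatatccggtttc
Gbp2: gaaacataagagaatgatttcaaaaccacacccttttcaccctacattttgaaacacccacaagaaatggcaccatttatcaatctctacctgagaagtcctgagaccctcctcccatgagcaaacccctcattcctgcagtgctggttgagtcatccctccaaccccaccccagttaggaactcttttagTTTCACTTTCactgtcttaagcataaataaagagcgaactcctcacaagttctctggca
Irgm1: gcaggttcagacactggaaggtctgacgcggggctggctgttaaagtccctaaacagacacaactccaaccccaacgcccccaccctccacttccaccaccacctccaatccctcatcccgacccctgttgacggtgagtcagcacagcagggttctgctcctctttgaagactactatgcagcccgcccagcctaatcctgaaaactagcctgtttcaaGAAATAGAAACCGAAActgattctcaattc
Igtp: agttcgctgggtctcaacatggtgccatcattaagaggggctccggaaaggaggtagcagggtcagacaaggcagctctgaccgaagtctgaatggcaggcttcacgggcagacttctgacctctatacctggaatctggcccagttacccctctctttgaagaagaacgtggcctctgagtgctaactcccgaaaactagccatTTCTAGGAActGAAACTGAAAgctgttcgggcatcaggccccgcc
Irgm2: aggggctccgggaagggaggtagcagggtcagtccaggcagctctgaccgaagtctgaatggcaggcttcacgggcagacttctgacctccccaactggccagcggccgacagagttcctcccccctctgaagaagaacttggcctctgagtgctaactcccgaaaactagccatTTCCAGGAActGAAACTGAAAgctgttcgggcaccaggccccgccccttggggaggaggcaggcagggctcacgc
The ISRE match began 53 bases before the start in Gbp7, 59 in Gbp2, 34 in Igtp and 64 in Irgm2. In Irgm1 matches began 30 and 24 bases before it and overlapped by 4 bases. Only 2 bases separated the GAS from the ISRE match in Igtp and in Irgm2, and the windows of these genes matched at 194 of 220 aligned positions (88.2%). For Irgm2 the bases after the RefSeq start were not found near the start of a GENCODE M21 transcript of the gene, unlike for the other 4, so its distances are from the RefSeq start alone. A match to these letters is a description of the sequence and not a binding site.

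The libraries held 28327612 to 32569544 counts each. Riok3 itself was measured at 4266, 5365 and 4022 counts in siNC replicates 1, 2 and 3 and at 1034, 1048 and 1155 in the siRIOK3 replicates, so every library went with its label. Levels below are CPM, counts scaled to a common library total with TMM factors. Tests are edgeR's quasi-likelihood test, with Benjamini-Hochberg adjustment of p over every tested gene and calls at 0.05. Fold changes over all genes followed the GC content of the transcripts (Spearman 0.70 across 13043 genes of the same 6 libraries). Results for the 9 genes are therefore also given with each library's trend on GC content removed. Riok3 itself had a log2 fold change of −2.23, of −1.20 with that trend removed, and of −0.89 with siNC replicate 2 also left out. siNC replicate 2 stood apart from its group, with Spearman correlations of 0.963 and 0.968 to the other siNC libraries, which had 0.996 between them, and results that change without it are also given so. For 5 of the 9 genes it was the lowest siNC library, as for 50.7% of tested genes, and for Gbp7 and Irgm1 it lay under 0.5 of the mean of the others, as for 13.6%.

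The 4 GBP genes, Iigp1 and Ifi204, 6 of the 9 genes, were lower in siRIOK3, where 26.8% of all tested genes were called lower. Igtp was higher, where 21.1% were called higher (48.0% in either direction), and Irgm1 and Irgm2 did not pass the test. All 6 falls were at least 2-fold, as for 19.2% of tested genes, and those of Gbp5, Gbp7, Iigp1 and Ifi204 at least 4-fold, as for 8.64%. The median log2 fold change of the 9 was −1.83, beside 0.01 over all tested genes. For the 6 that fell, every siRIOK3 library lay below every siNC library, as for 31.3% of tested genes. After removal of the GC trend the same 6 were lower (background 15.2%), Igtp and Irgm2 were higher (16.3%, or 31.6% in either direction) and the median was −1.03, beside 0.03. Without siNC replicate 2, Irgm1 joined the 6 as lower (background 36.5%) and Igtp was still called higher (35.1%, or 71.6% in either direction). With siNC 2 left out and the GC trend removed the 6 were lower (27.9%) and the 3 regulator genes higher (33.6%, or 61.5% in either direction).

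**Figure D1:**
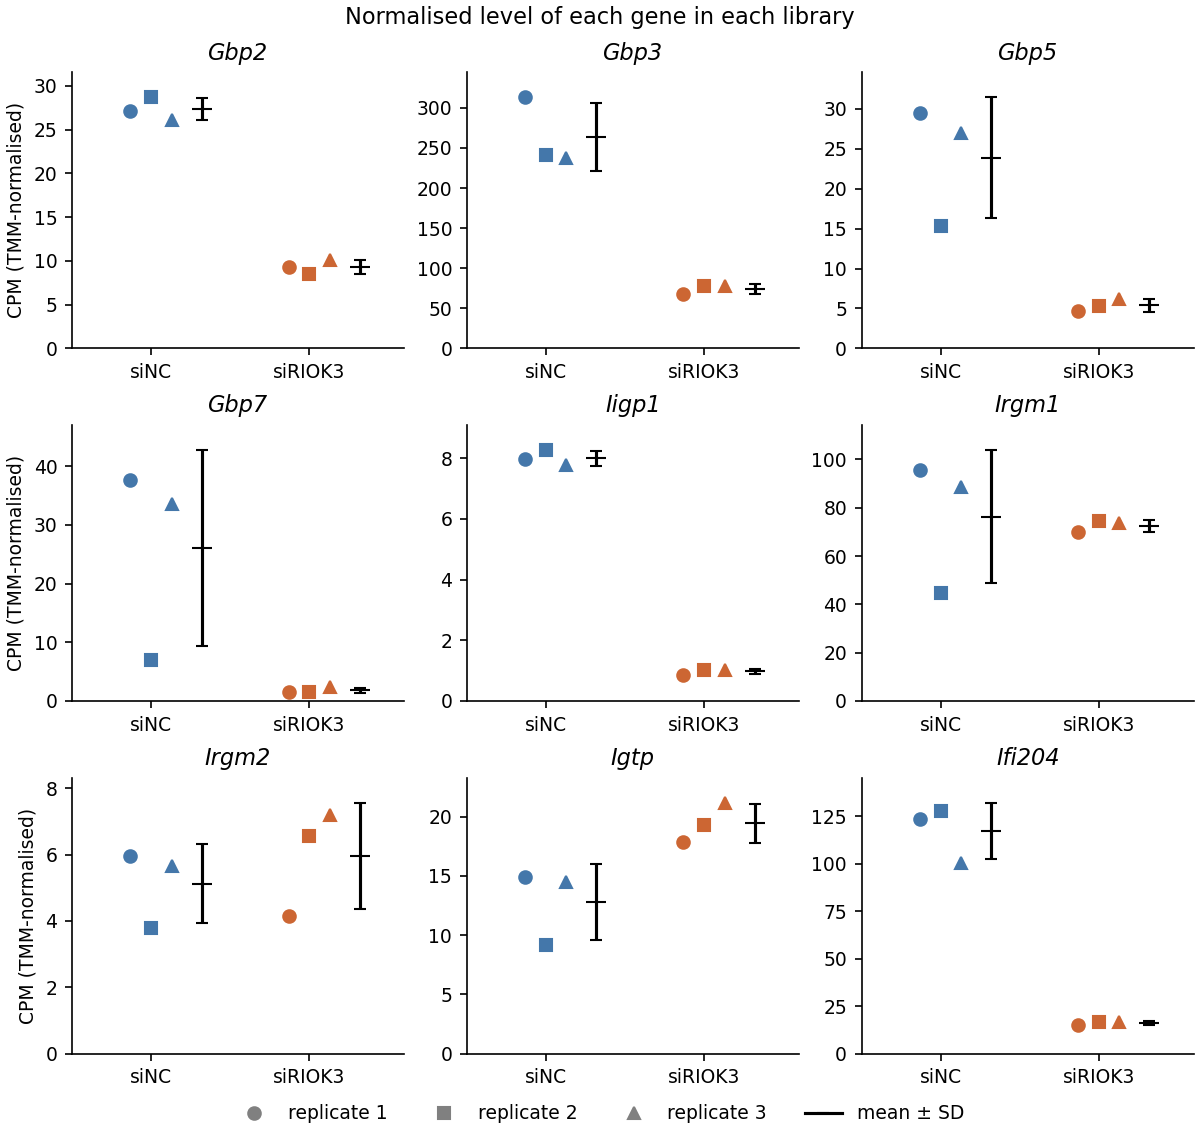
Each panel gives 1 gene, with TMM-normalised CPM on a linear axis from 0, a point per library (shape by replicate number, blue siNC, orange siRIOK3) and the mean ± SD of each group (n = 3) as a bar. The groups are apart in 7 panels and overlap for Irgm1 and Irgm2. In 6 panels siRIOK3 lies below siNC, as for 31.3% of tested genes, and in 1 above it, as for 30.8%. The siNC 2 square lies well below the other siNC points for Gbp5, Gbp7, Irgm1, Irgm2 and Igtp.

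Per unit of transcript length the genes spanned a wide range. In siNC, the deposited FPKM was highest for Gbp3 (71.2 ± 11.1, SD, n = 3), followed by Ifi204 (29.0 ± 3.06), Irgm1 (11.6 ± 4.29) and Gbp2 (9.57 ± 0.267). Lower values were found for Igtp (5.61 ± 1.47), Gbp7 (4.12 ± 2.65), Gbp5 (3.18 ± 1.04), Irgm2 (1.23 ± 0.295) and Iigp1 (1.21 ± 0.0153). Irgm1 and Gbp2, Igtp and Gbp7, Gbp7 and Gbp5, and Irgm2 and Iigp1 overlapped between libraries, so 4 of the 8 neighbouring pairs in this order were not apart. In siRIOK3 no neighbouring pair of the 8 overlapped. Gbp3 was again first at 24.3 ± 2.06. The regulators Irgm1 (13.3 ± 0.524) and Igtp (10.3 ± 0.943) came before Ifi204 (4.82 ± 0.330) and Gbp2 (3.96 ± 0.361). In siNC Ifi204 had preceded both regulators and Gbp2 had preceded Igtp only. Irgm2 (1.73 ± 0.474) preceded Gbp5 (0.87 ± 0.135), Gbp7 (0.347 ± 0.0896) and Iigp1 (0.18 ± 0.0173), which was last in both groups.

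All 4 GBP genes, which lie together on chromosome 3, fell in siRIOK3, by between 2.93- and 14.2-fold in mean CPM. Gbp7 (ENSMUSG00000040253.16), whose protein recruits antimicrobial factors to vacuoles, had 37.7, 6.94 and 33.5 CPM in siNC 1, 2 and 3 and 1.55, 1.59 and 2.35 CPM in the siRIOK3 libraries. siNC 2 lay at 0.195 of the mean of the other siNC libraries, yet still above every siRIOK3 library. The mean went from 26.1 ± 16.7 to 1.83 ± 0.449 CPM, with a log2 fold change of −3.83 (SE 0.634, edgeR adjusted p = 0.00271). It was −2.15 (SE 0.524, edgeR adjusted p = 0.0217) with the GC trend removed and −4.28 without siNC 2.

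Gbp5 (ENSMUSG00000105504.5), a GBP that promotes NLRP3 inflammasome assembly, had 29.4, 15.3 and 27.0 CPM in siNC and 4.63, 5.32 and 6.21 CPM in siRIOK3. siNC 2 was again the lowest siNC library, and the groups did not overlap. The means were 23.9 ± 7.56 and 5.39 ± 0.794 CPM, 4.43-fold lower, with a log2 fold change of −2.15 (SE 0.273, edgeR adjusted p = 0.000869). Among the 6 genes that fell, Gbp5 moved least with the GC trend removed, to −2.02 (SE 0.228, edgeR adjusted p = 0.00132). Its transcript had 49.2% GC, near the median of 50.4% over all genes.

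Gbp3 (ENSMUSG00000028268.15), the most abundant of the 9, had 313, 241 and 237 CPM in siNC and 67.4, 77.8 and 77.2 CPM in siRIOK3. Here siNC 2 and 3 lay together below siNC 1. The mean fell from 264 ± 42.8 to 74.2 ± 5.85 CPM, 3.56-fold, with a log2 fold change of −1.83 (SE 0.157, edgeR adjusted p = 0.000171), and of −1.20 (SE 0.136) with the GC trend removed. Gbp2 (ENSMUSG00000028270.13), which coats cytosolic bacteria and vacuoles, was the GBP gene of the 4 with the tightest siNC values, 27.2, 28.7 and 26.1 CPM. Its siRIOK3 values were 9.32, 8.50 and 10.1 CPM. The mean fell 2.93-fold from 27.3 ± 1.28 to 9.32 ± 0.820 CPM, a log2 fold change of −1.55 (SE 0.134, edgeR adjusted p = 0.000159), and of −1.09 (SE 0.153) with the GC trend removed.

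Summed over the 11 GBP genes of the table, the deposited FPKM went from 119.5 ± 17.5 in siNC to 36.3 ± 1.99 in siRIOK3. Gbp3 held 60.7, 61.6 and 56.3% of this sum in siNC 1, 2 and 3 and 64.2, 69.3 and 66.8% in siRIOK3, so it was the larger part of the family's RNA in every library. The share of Gbp7 was 4.25, 1.03 and 4.63% in siNC and 0.85, 0.82 and 1.18% in siRIOK3. In bulk RNA, fewer cells that express these genes and less RNA per cell cannot be told apart.

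Among the 4 IRG genes, with all 6 libraries, the effector Iigp1 fell, the regulator Igtp rose, and the regulators Irgm1 and Irgm2 did not pass the test. Iigp1 (ENSMUSG00000054072.13, chromosome 18) had 7.96, 8.27 and 7.78 CPM in siNC and 0.870, 1.02 and 1.03 CPM in siRIOK3. These rest on 237, 230 and 231 counts against 28, 34 and 32, and no siNC library stood apart. The mean fell 8.22-fold from 8.0 ± 0.246 to 0.974 ± 0.0900 CPM, a log2 fold change of −3.03 (SE 0.172, edgeR adjusted p = 3.15e-05). It was −0.88 after removal of the GC trend (SE 0.211, edgeR adjusted p = 0.0203), the largest move of the 9, and its transcript had the lowest GC content of the 9, 39.3%.

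Igtp (ENSMUSG00000078853.9, chromosome 11) had 14.9, 9.13 and 14.5 CPM in siNC and 17.9, 19.3 and 21.2 CPM in siRIOK3. Every siRIOK3 library lay above every siNC library, as for 30.8% of tested genes. The mean rose 1.52-fold from 12.8 ± 3.21 to 19.5 ± 1.65 CPM, with a log2 fold change of 0.60 (SE 0.208, edgeR adjusted p = 0.0485). The call was narrow. It was lost when any single library other than siNC 2 was left out, with edgeR adjusted p up to 0.138, and kept without siNC 2 (0.41, edgeR adjusted p = 0.00205). Removal of the GC trend left it called as well (0.68, edgeR adjusted p = 0.0229).

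Irgm1 (ENSMUSG00000046879.8, chromosome 11), which also acts in autophagy, had 95.7, 44.8 and 88.6 CPM in siNC and 69.8, 74.3 and 73.5 CPM in siRIOK3. The siRIOK3 libraries lay between siNC 2 and the other siNC libraries. The means, 76.4 ± 27.5 and 72.6 ± 2.43 CPM, gave a log2 fold change of −0.07 (SE 0.271, edgeR adjusted p = 0.839). Without siNC 2 it was called lower, at −0.34 (SE 0.0664, edgeR adjusted p = 0.00021), as it was by limma-voom with sample quality weights (−0.30, adjusted p = 0.005). The value was 0.63 with the GC trend removed (SE 0.209, edgeR adjusted p = 0.0579), and with siNC 2 left out as well it was called higher, at 0.42 (edgeR adjusted p = 3.28e-06). The direction for Irgm1 thus depended on the fit.

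Irgm2 (ENSMUSG00000069874.8, chromosome 11), a regulator that also restrains noncanonical inflammasome activation, had 5.94, 3.77 and 5.66 CPM in siNC and 4.13, 6.55 and 7.18 CPM in siRIOK3. The groups overlapped. The means were 5.13 ± 1.18 and 5.95 ± 1.61 CPM, with a log2 fold change of 0.21 (SE 0.270, edgeR adjusted p = 0.54). It was called higher with the GC trend removed (0.77, SE 0.231, edgeR adjusted p = 0.0437) and not when only siNC 2 was left out (0.04, edgeR adjusted p = 0.869).

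The summed FPKM of the 15 IRG genes in the table was 23.4 ± 7.69 in siNC and 27.9 ± 2.01 in siRIOK3, with a spread in siNC larger than the difference. Within the sum, Igtp held 22.7, 26.9 and 23.7% in siNC and 36.4, 36.3 and 37.8% in siRIOK3. Iigp1 held 4.23, 8.45 and 4.43% in siNC and 0.62, 0.68 and 0.64% in siRIOK3, and Irgm1 between 45.7 and 50.8% in all 6 libraries. These shares are taken within a library, so the scaling of libraries does not enter them. A trend on GC content does, as the transcripts differ in GC (39.3% for Iigp1, 49.5% for Igtp), and no share was taken with that trend removed.

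Ifi204 (ENSMUSG00000073489.7, chromosome 1) had 124, 128 and 100.5 CPM in siNC and 14.9, 16.6 and 16.7 CPM in siRIOK3. No library of either group came near the other group. The mean fell 7.30-fold from 117 ± 14.8 to 16.1 ± 1.0 CPM, a log2 fold change of −2.87 (SE 0.151, edgeR adjusted p = 2.82e-05). Without the GC trend it was −1.03 (SE 0.195, edgeR adjusted p = 0.00886), and its transcript had 40.6% GC. Over the 13 Ifi200 genes of the FPKM table the summed FPKM was 100.5 ± 7.01 in siNC and 18.9 ± 1.41 in siRIOK3, and Ifi204 held between 25.0 and 31.8% of the sum in each library.

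**Figure D2:**
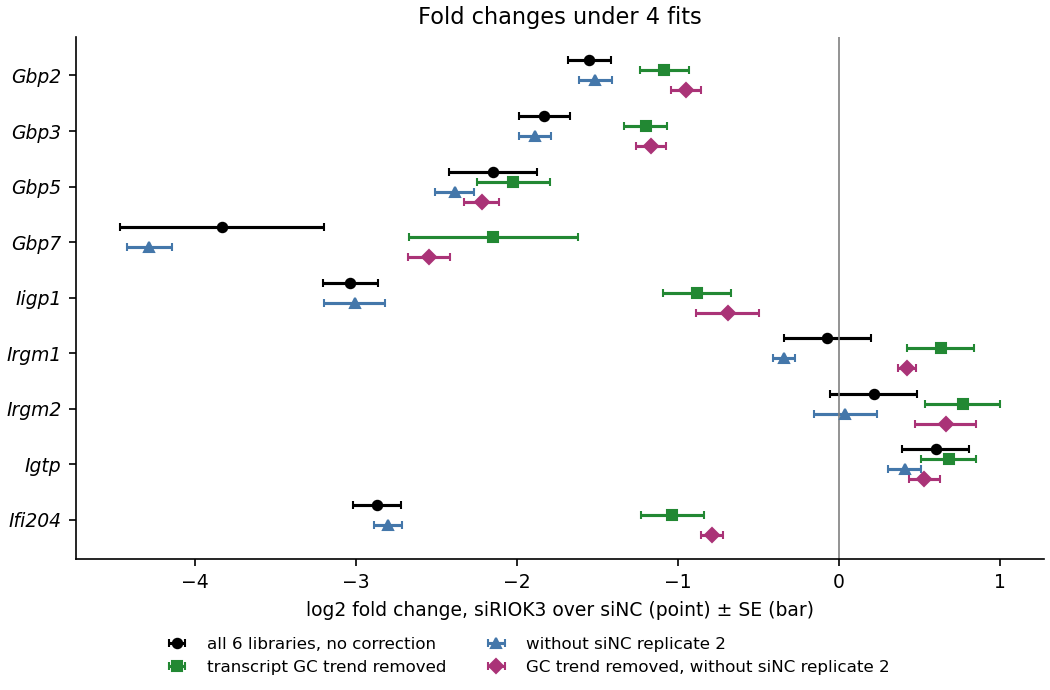
The points are log2 fold changes of siRIOK3 over siNC from edgeR and the bars are ± SE, for each of the 9 genes under 4 fits: all 6 libraries, GC trend removed, siNC replicate 2 left out, and both together. The 6 genes that fell stay left of 0 in all 4 fits, Igtp and Irgm2 stay right of it, and Irgm1 lies on both sides, from −0.34 to 0.63.

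All 9 transcripts had less GC than the median gene, between 39.3 and 49.5%. Genes with similar GC content differed. Gbp3 with 45.9%, Gbp2 with 46.8%, Irgm1 with 45.7% and Irgm2 with 46.4% had log2 fold changes of −1.83, −1.55, −0.07 and 0.21. Gbp5 (49.2%) and Igtp (49.5%) had −2.15 and 0.60. The part of GC content in these differences was not tested. The fall with the GC trend removed was at least 1 on the log2 scale for 5 genes, Gbp5, Gbp7, Gbp2, Gbp3 and Ifi204. With siNC replicate 2 left out as well, only Gbp5 (−2.22), Gbp7 (−2.55) and Gbp3 (−1.17) kept a fall of that size. Gbp2 was then at −0.95, Ifi204 at −0.79 and Iigp1 at −0.69.

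**Figure D3:**
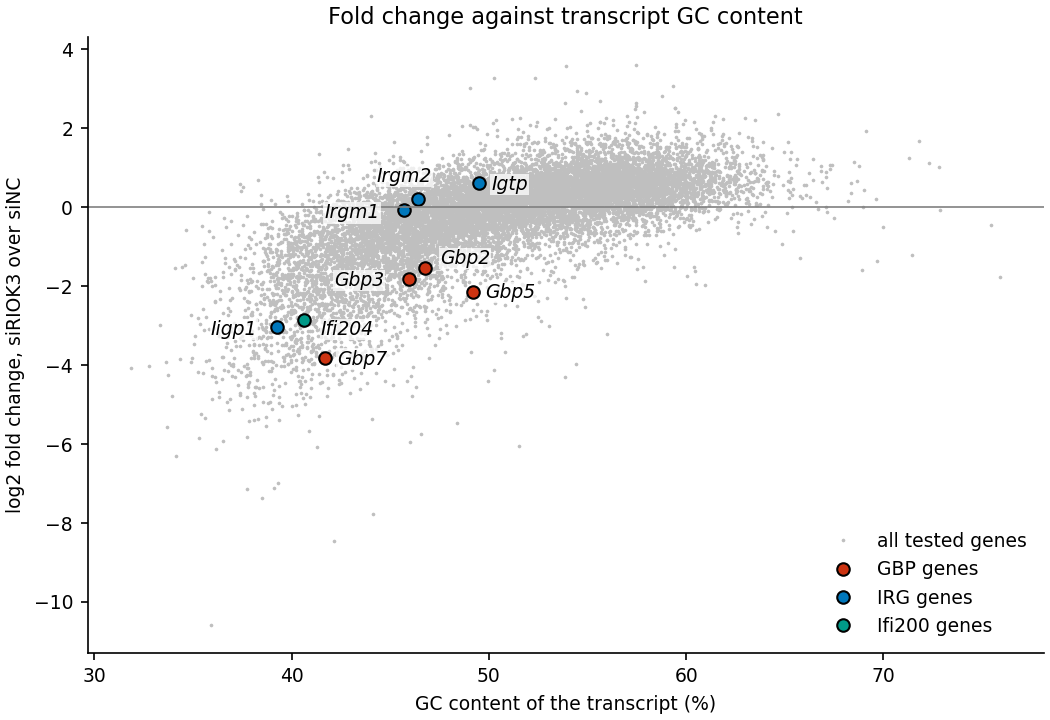
The x axis is the GC content of a single transcript per gene in percent and the y axis the log2 fold change of siRIOK3 over siNC, with no GC correction. Grey points are the 13043 tested genes with a transcript and coloured points the 9 genes, of which Gbp5 lies toward the lower edge of the cloud at its GC content, and Igtp, Irgm1 and Irgm2 lie within the cloud.

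Near-identical copies limit some of these values. Of the windows of 75 bases in a transcript of Ifi204, 20.75% also occurred in another gene, Ifi211 for the most part. The share was 11.43% for Gbp7, 8.37% for Igtp and 4.28% for Irgm2, which share with each other, 2.68% for Gbp3 and at most 1.03% for the other 4 genes. In coding sequence Gbp3 and Gbp7 were 76.6% identical, Gbp2 and Gbp2b 82.5%, Irgm2 and Igtp 67.9%, and Iigp1 and its relative Gm4951 86.1%. The sources used here do not say how reads that fit several genes were counted, so the split between such genes is uncertain.

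The 7 other GBP genes were all tested and all 7 fell (26.8% of all tested genes), with a median log2 fold change of −1.57. None was higher, by edgeR at adjusted or unadjusted p under 0.05 or by DESeq2. Gbp2b, the neighbour of Gbp2 on chromosome 3, went from 69.3 ± 6.75 to 10.3 ± 0.939 CPM (−2.75, SE 0.148, edgeR adjusted p = 2.83e-05). On chromosome 5, Gbp9 went from 33.5 ± 7.53 to 5.66 ± 0.204 CPM (−2.56), Gbp6 from 4.08 ± 0.740 to 1.38 ± 0.119 CPM (−1.57) and Gbp10 from 8.39 ± 2.01 to 3.15 ± 0.181 CPM (−1.41). With the GC trend removed 3 of the 7, Gbp2b (−1.67), Gbp9 (−1.19) and Gbp6 (−0.80), were still lower (15.2% of all tested genes), and Gbp10 was at −0.15. With siNC 2 left out as well 5 were lower (27.9% of all tested genes), the other 2 being Gbp8 (−0.78) and Gbp11 (−1.15), named after their values were seen. The GBP genes thus fell on both chromosomes. With that trend removed the log2 fold changes of the 5 genes on chromosome 3 ran from −2.15 for Gbp7 to −1.09 for Gbp2, and those of the 6 on chromosome 5 from −1.19 for Gbp9 to −0.14 for Gbp4, a difference between loci that was not tested.

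Of 11 other IRG genes counted, 7 were tested, and 2 were lower and 1 was higher (26.8% and 21.1% of all tested genes). Their median was −0.77 (0.28 with the GC trend removed). Gm4951, the close copy of Iigp1 on chromosome 18, went from 1.97 ± 0.914 to 0.394 ± 0.0302 CPM (−2.31, edgeR adjusted p = 0.00445; −0.51, not called, with the GC trend removed). The predicted GTPase gene 9930111J21Rik2 had 239, 9 and 185 counts in siNC and 5, 15 and 3 in siRIOK3 (−4.34, SE 1.12, edgeR adjusted p = 0.0169), so siNC 2 lay among the siRIOK3 libraries. Its log2 fold change was −3.02 with the GC trend removed (edgeR adjusted p = 0.0696) and −4.88 without siNC 2. Irgq, an IRG-like gene outside the interferon-induced group, rose from 3.55 ± 0.994 to 6.99 ± 0.600 CPM (0.97, edgeR adjusted p = 0.0128; 0.49, not called, with the GC trend removed). Tgtp2, an effector IRG gene, was at −0.90 (edgeR adjusted p = 0.216). After removal of the GC trend none of the 7 was called by edgeR, while 2 were higher and 1 was lower at an unadjusted p under 0.05. DESeq2, run without that correction, called 2 lower and 1 higher. siNC 2 decided several of these calls. Without it 8 were tested and 4 were lower (36.5% of all tested genes), Tgtp2 (−1.24) and F830016B08Rik joining the first 2. Without it and the GC trend 2 were lower (27.9% of all tested genes), 9930111J21Rik2 (−3.54) and F830016B08Rik (−3.46). F830016B08Rik, a predicted GTPase gene below the filter with all 6 libraries, had 106, 6 and 97 counts in siNC and 1, 2 and 4 in siRIOK3.

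All 9 tested genes of the 13 other Ifi200 genes in the table fell (26.8% of all tested genes), with a median of −1.89. None was higher by edgeR at adjusted or unadjusted p under 0.05 or by DESeq2. Ifi202b, which lacks the signalling domain of its relatives, went from 75.6 ± 11.0 to 6.60 ± 0.851 CPM (−3.52, SE 0.182, edgeR adjusted p = 2.82e-05). Ifi205 had 125, 124 and 113 counts in siNC and 8, 8 and 10 in siRIOK3 (−3.92, edgeR adjusted p = 3.85e-05). Ifi203 fell from 55.2 ± 8.0 to 16.6 ± 0.889 CPM (−1.74) and Mndal from 32.6 ± 6.59 to 9.90 ± 0.822 CPM (−1.72). With the GC trend removed 4 were lower (15.2% of all tested genes), Ifi205 (−1.73), Ifi202b (−0.94) and, named after their values were seen, Ifi211 (−0.72) and Ifi207 (−0.70). Ifi203 was at −0.16, and Mndal turned to higher (0.50, edgeR adjusted p = 0.0192).

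**Figure D4:**
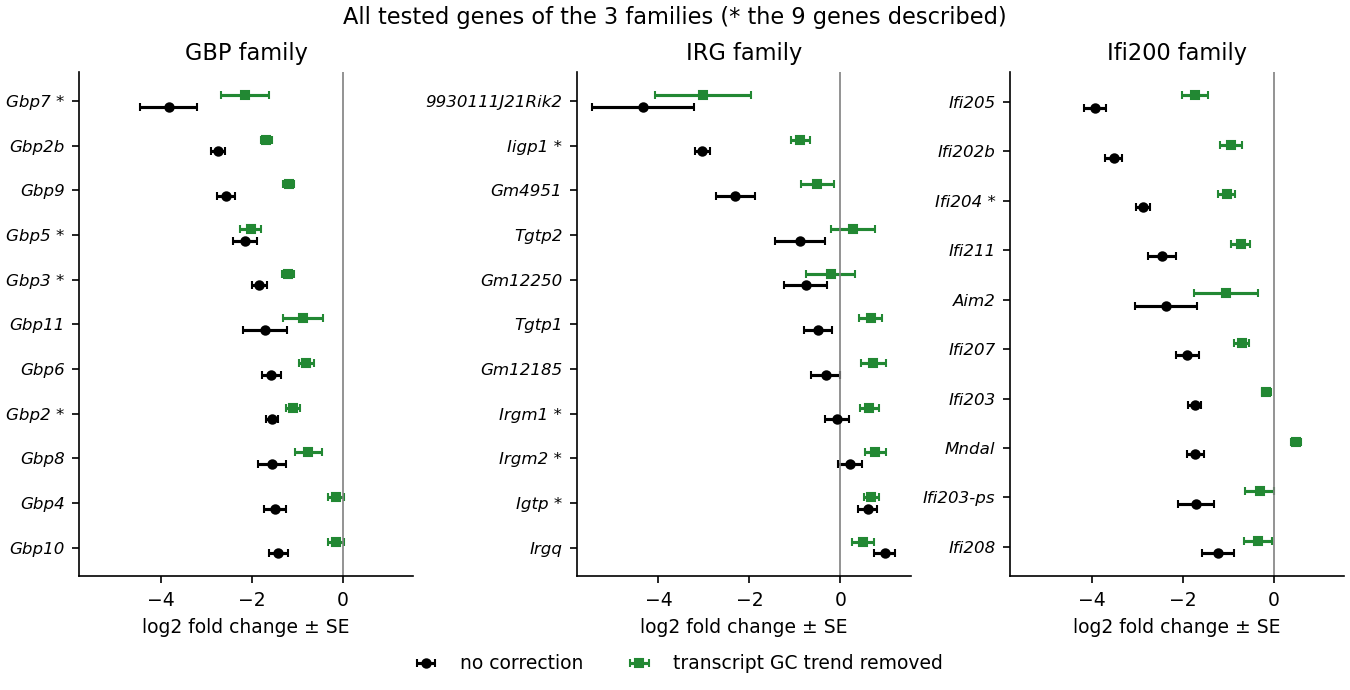
Log2 fold changes (points, siRIOK3 over siNC) ± SE (bars) are shown for every tested gene of the 3 families, without correction (black) and with the GC trend removed (green), and asterisks mark the 9 genes described. All black points of the GBP and Ifi200 panels lie below 0, the IRG panel runs from −4.34 to 0.97, and in green Mndal in the Ifi200 panel lies above 0.

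Of the interferon-induced large GTPase genes of the MX and GVIN groups, 3 of 5 in the table were tested and 2 were lower (26.8% of all tested genes). Mx1 and Mx2 are both annotated as polymorphic pseudogenes. Mx1 went from 4.38 ± 0.969 to 1.97 ± 0.152 CPM (−1.15, edgeR adjusted p = 0.00512), and was at −0.75, still called, with the GC trend removed. Gvin2 had 386, 49 and 342 counts in siNC and 15, 21 and 7 in siRIOK3 (−4.29, edgeR adjusted p = 0.00446; −2.31 with the GC trend removed, still called, and −4.77 without siNC 2). As for Gbp7, siNC 2 lay well below the other siNC libraries. Mx2 was at −0.26 (edgeR adjusted p = 0.168).

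Upstream, 17 of 19 genes of interferon signalling were tested, and 4 were higher and 2 lower, with a median of 0.04. Over all tested genes 21.1% were higher and 26.8% lower. Jak2, a kinase of the interferon-gamma receptor, fell from 64.4 ± 3.58 to 19.5 ± 2.18 CPM (−1.72, edgeR adjusted p = 0.000123; −0.77 with the GC trend removed). Usp18, itself induced by interferon and a brake on type I receptor signalling, rose from 29.6 ± 6.03 to 82.6 ± 1.27 CPM (1.48, edgeR adjusted p = 0.000609; 1.39 with the GC trend removed). Ptpn2, a phosphatase that restrains this pathway, fell from 120.5 ± 28.5 to 36.8 ± 1.18 CPM (−1.71), and Tyk2, a kinase of the type I receptor, rose from 11.2 ± 1.42 to 19.5 ± 1.87 CPM (0.80). Ifnar1 (0.52) and Irf9 (0.84), named after their values were seen, were the other genes called higher, and both were still called with the GC trend removed (0.51 and 0.64). Without siNC 2 there were 4 lower (36.5% of all tested genes), Jak1 (−0.76), a kinase of both interferon receptors, and Nlrc5 (−0.24) in addition. With the GC trend removed as well 6 were higher and 6 lower (33.6% and 27.9% of all tested genes). Neither Ptpn2 nor Tyk2 was called with the GC trend removed and all 6 libraries kept (0.32 and 0.26). With siNC 2 left out as well Ptpn2 was called higher (0.72, edgeR adjusted p = 9.9e-09), so its direction depended on the fit. Interferon-stimulated genes thus moved in both directions, Usp18 up and the GBP genes down. Ifnb1, the interferon beta gene, was below the filter, with 8, 4 and 5 counts in siNC and 0, 2 and 3 in siRIOK3.

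In the machinery that brings GBPs and IRGs to vacuoles, which includes the conjugation of LC3 proteins to membranes, 17 genes were tested. Of these 1 was higher and 3 lower (21.1% and 26.8% of all tested genes), with a median of 0.08. Without siNC 2, 6 were higher and 8 lower, as by limma-voom with sample quality weights. Calls over all tested genes also rose without siNC 2, to 35.1% higher and 36.5% lower. Atg3, the conjugating enzyme, fell from 129 ± 16.6 to 73.2 ± 4.77 CPM (−0.82, edgeR adjusted p = 0.00291), and Map1lc3a, an LC3 gene, rose from 27.1 ± 2.10 to 43.8 ± 4.56 CPM (0.69, edgeR adjusted p = 0.00568). Lgals8, a galectin that marks broken vacuoles, was at −0.47 and Atg12 at −0.51, both called lower. With the GC trend removed none of these 4 was called (0.01, −0.04, 0.00 and 0.42). Then 2 genes of the list were higher (16.3% of all tested genes), Atg10 (1.19) and Trim21 (1.03), named after their values were seen. Without siNC 2 and the GC trend 8 were higher and 2 lower (33.6% and 27.9% of all tested genes).

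Among 12 tested genes of DNA sensing and the inflammasome 4 were higher and 3 lower, with a median of 0.42 (−0.09 with the GC trend removed). The shares over all tested genes were 21.1% higher and 26.8% lower. With the GC trend removed 2 were higher and 2 lower (16.3% and 15.2% of all tested genes). Without siNC 2, 5 were higher and 3 lower (35.1% and 36.5%). With siNC 2 left out and the GC trend removed the balance turned, with 3 higher and 5 lower (33.6% and 27.9%). Casp4, the sensor of cytosolic lipopolysaccharide that acts downstream of GBPs, had 21.9, 33.5 and 21.3 CPM in siNC and 1.77, 2.28 and 1.38 CPM in siRIOK3. It fell by 3.81 on the log2 scale (SE 0.277, edgeR adjusted p = 8.95e-05), and was at −2.35 with the GC trend removed. Irf7, a transcription factor of the interferon response, rose from 68.3 ± 9.21 to 217 ± 4.07 CPM (1.67, edgeR adjusted p = 0.000144; 1.15 with the GC trend removed). Tbk1, the kinase downstream of DNA sensors, fell from 60.7 ± 10.1 to 25.4 ± 1.08 CPM (−1.26), and Zbp1, a nucleic acid sensor, rose from 14.4 ± 1.44 to 24.5 ± 1.17 CPM (0.77). Called too, and named after their values were seen, were Cgas (−0.99), Irf3 (0.43) and Ddx41 (0.42), none of which kept its call with the GC trend removed (−0.34, −0.10 and −0.09). Tbk1 and Zbp1 kept theirs (−0.51 and 0.49).

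Markers of other cell types were measured in the same libraries. The summed level of 12 blood cell markers was 26.9 to 43.4 CPM in siNC and 46.7 to 51.9 CPM in siRIOK3, most of it Cd68, a lysosomal gene. Without Cd68 the sum was 1.54 to 2.66 CPM in siNC and 1.32 to 1.64 CPM in siRIOK3. Of the 12 markers, 8 had at most 10 counts in every library. The pan-leukocyte marker Ptprc had 3, 0 and 3 counts in siNC and 1, 0 and 0 in siRIOK3, and Itgam had 2, 7 and 2 in siNC and 0 in each siRIOK3 library. Cd14 went from 1.09 ± 0.189 to 0.675 ± 0.0882 CPM (−0.69, edgeR adjusted p = 0.0748) and was called lower with the GC trend removed (−0.94, edgeR adjusted p = 0.0377). Endothelial markers summed to 7.23 to 10.8 CPM in siNC and 14.7 to 16.3 CPM in siRIOK3, and stromal markers to 769 to 980 CPM and 908 to 922 CPM. The stromal sum hides moves in opposite directions. Of 13 tested stromal markers 5 were called higher and 6 lower (21.1% and 26.8% of all tested genes). With the GC trend removed 4 were higher and 3 lower (16.3% and 15.2%). The part of other cell types in the falls described above was not tested.

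The genes whose profile over the 6 libraries lay nearest to that of a family's gene with the smallest p were sought among 11622 other genes, by the root mean square distance of log2 CPM centred on each gene's mean. Nearest to Gbp2 were Pclaf (0.0434), Fam204a (0.0520) and Bbs7 (0.0533). For Iigp1 they were Vps50 (0.0858), Serpina3h (0.0908) and Trmt13 (0.115), and for Ifi204 Ccdc34 (0.0712), Trmt13 (0.0938) and Cwc22 (0.104). None of these 8 genes belongs to the 3 families, and with 6 libraries in 2 groups the distance mainly reads the size of the fall, from −3.27 for Serpina3h to −1.48 for Bbs7.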

How the data were processed

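The authors deposited raw counts per gene and FPKM values (reads per length of gene and size of library) for 3 siNC and 3 siRIOK3 libraries of a stranded mRNA kit, read as paired ends on a NovaSeq instrument per the labels' protocols. The submitters' processing notes name HISAT2, MultiQC and the build GRCm39. Not given in the sources used here are the counting tool, its strand setting and the annotation release, so reads of overlapping antisense genes may be included.

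Counts were filtered with filterByExpr (13067 genes, 99.95% of counts), TMM-scaled and tested with the quasi-likelihood test of edgeR 4.0.16 in R 4.3.3, two-sided and without covariates. The SE was taken as the absolute log2 fold change over the root of the F statistic. A log2 CPM used for distances had a prior count of 2. The GC trend of each library was fitted by loess (span 0.3, degree 1) on 1 GENCODE M21 transcript per gene (GRCm38, an earlier build, used for GC, length and shared sequence) and entered as an offset. Coding identity came from Biopython 1.88. The test was run on simulated counts. Replicates differed beyond counting error in every pair. Alternatives were DESeq2 1.42.0, limma-voom (limma 3.58.1), other scalings and filters, a replicate block, each library left out, GC and length offsets, and limma on log2(FPKM + 1) and log2(FPKM + 0.1). A fold change on those 2 scales understates changes of low genes.

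The 9 genes and all lists were chosen with earlier results of these data known. Named were the 9 genes, up to 4 genes per list with the smallest p, and genes under the filter with their counts. For the gene of each family with the smallest p, the 3 nearest profiles outside the 9 genes were named, gene models and pseudogenes left out.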

Additional observations from a re-analysis of the deposited data

How the results depend on the processing

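The 6 genes called lower kept their direction and call in all 21 alternatives (Gbp2 −1.61 to −0.95, Gbp3 −1.90 to −1.17, Gbp5 −2.39 to −1.13, Gbp7 −4.28 to −1.74, Iigp1 −3.06 to −0.69, Ifi204 −2.97 to −0.79, log2 scale). Igtp was higher in all 21 (0.41 to 0.90) and called in 15. Its call was also lost with a filter of 5 CPM in 3 libraries (0.59, edgeR adjusted p = 0.0508), which left 0 of the 9 genes called higher and 1 at an unadjusted p under 0.05; DESeq2 was not run with that filter. Irgm1 turned positive with upper-quartile factors (0.15), library totals (0.17), log2(FPKM + 1) (0.25, and 0.25 with no filter), log2(FPKM + 0.1) (0.27), the GC offset (0.63), GC and length (0.59), the GC offset without siNC replicate 2 (0.42), and without siNC replicate 1 (0.12) or 3 (0.05), and ran from −0.343 to 0.12 with a single library left out. It was called lower by limma-voom (−0.30) and without siNC replicate 2. Irgm2 turned to −0.0104 with limma-voom. The cause was not tested. Of the 9 genes, those called higher numbered 2 with the GC offset, 2 with GC and length, 3 with the GC offset without siNC replicate 2, and 0 to 1 with a single library left out (also 0 to 1 at an unadjusted p under 0.05, and 6 to 7 lower). Over all tested genes, 2758 were higher and 3508 lower. Higher were 4673 with limma-voom, 4280 with library totals and 4499 with the GC offset without siNC replicate 2. Lower were 1976 with log2(FPKM + 1), 1974 with log2(FPKM + 0.1) and 1988 with the GC offset. Leaving out single libraries gave 1647 to 4701 higher and 2693 to 4891 lower. Of called genes 56.0% were lower, against 43.8% with upper-quartile factors and 39.7% with library totals, under which the median of all genes was 0.21 and 0.26 instead of 0.01.

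The deviations of same-numbered replicates from their group means had correlations of −0.076, 0.044 and 0.052. Not every library correlated best with its own number. With 3 libraries per group, deviations from a group's own mean constrain one another, and siNC replicate 2 stood apart. These values therefore cannot decide whether the replicates were paired. With the replicate number as a block 2390 genes were higher and 3225 lower, 1 and 6 of them among the 9, with Gbp7 at −3.56, Igtp at 0.63 and Irgm1 at 0.00. With the block and the GC offset 1562 were higher, 1540 lower, and Irgm1 was at 0.67. Iigp1 in siRIOK3 rests on 28 to 34 counts per library, which sets the precision of its level.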
